A study of Mus musculus with 10 samples.

Results

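The genes described here are 10 mouse sensors and adaptors of foreign or misplaced nucleic acid: Ifih1, Ddx58, Dhx58, Mavs, Tlr3, Eif2ak2, Adar, Zbp1, Cgas (listed elsewhere as Mb21d1) and Tmem173 (newer name Sting1). They were chosen by name, and all 10 were found among the 27151 genes of the deposited table and passed the filter on low values that 17088 genes passed. Their RNA was measured in the tongue. All mice, treated and control alike, were C57BL/6J and had been exposed to 4NQO, a DNA-damaging carcinogen that induces oral lesions. The treated mice received SP2509, an inhibitor of the histone demethylase LSD1 (6 libraries), and the controls received vehicle (4 libraries). The treated libraries are titled SP2509h with no explanation of the h, and no age, sex, dose or duration of treatment is given in the sources used here. Nothing ties a library to a mouse of its own, so all p-values below rest on the spread among libraries, some of which may be technical.

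Cells recognise double-stranded RNA in the cytosol with the helicases RIG-I (gene Ddx58) and MDA5 (Ifih1), which signal through the mitochondrial adaptor MAVS, and in endosomes with TLR3. The kinase PKR (Eif2ak2) and ZBP1 also bind such RNA, and the editing enzyme ADAR1 (Adar) marks cellular duplexes as self. Cytosolic DNA is read by cGAS (Cgas), whose cyclic dinucleotide product activates the adaptor STING (Tmem173). In viral mimicry, transcripts of a cell's own silenced repeats engage these sensors and start an interferon response, which in turn raises the transcription of many sensor genes. Loss of LSD1 activity has been linked to this process in cancer cells, which is the question that the comparison of SP2509 with vehicle addresses for these genes.

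Since many sensor genes are themselves induced by interferon, the sequence around their start sites was searched for the letters that interferon-activated factors are known to bind. RefSeq promoter windows (GRCm38.p6, 250 bases before to 50 after a start site) were matched for 7 of the 10 genes, in 9 windows. The ISRE core, searched on either strand as GAAA, any 2 bases and GAAA, was found in Ifih1, Ddx58 and Eif2ak2. Over all genes it was found in 3.99% of 27025 genes and in 3.44% of their 32851 windows. The shorter IRF core, searched as AANNGAAA on either strand and contained in every ISRE core, was found in those 3 and in Adar and Tlr3. Over all genes it was found in 26.7% of genes and in 23.9% of windows. The windows of Mavs and Cgas held neither. A match of letters is a description of these windows and is no evidence of binding. The 30 bases around each match are shown because they are the stretches that set the 2 classes apart, 5′ to 3′ on the strand of the gene, with the matched letters in capitals.
Ifih1 (chr2:62646206-62646235, minus strand, match from base 29 after the start): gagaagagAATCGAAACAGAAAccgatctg
Ddx58 (chr4:40239804-40239833, minus strand, match from base 3 after the start): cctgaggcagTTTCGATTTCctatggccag
Ddx58 (chr4:40239866-40239895, minus strand, match from 59 bases before the start): tctaggttcagAAACGAAActggatccccg
Eif2ak2 (chr17:78882535-78882564, minus strand, match from base 19 after the start): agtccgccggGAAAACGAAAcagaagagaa
Adar (chr3:89730736-89730765, plus strand, match from base 30 after the third of its RefSeq starts): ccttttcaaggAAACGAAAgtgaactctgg
Tlr3 (chr8:45410421-45410450, minus strand, match from 59 bases before the start): aagtgaatggcTTTCACTTtgtttagacac

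Libraries that stand apart affect the values below. SP2509 replicates 1 and 2, and likewise 4 and 5, resembled each other closely. Among genes with 1000 to 5000 reads their spread was 3.49 and 3.72 times the Poisson expectation, against 11.1 to 163 in the other 19 pairs of one group. Each close pair was therefore averaged to 1 unit in every mean and SD, giving n = 4 SP2509 units. The main limma fit instead took all 10 libraries separately, so its fold changes, SE and p count both members of a close pair. A difference of means and a log2 fold change can therefore differ in direction. Keratinocyte and skeletal muscle markers, which the tongue should hold, were present in every library in uneven amounts. The 12 keratinocyte markers summed to 277628 to 333913 normalised reads in SP2509 replicates 1 to 3, and to 164474 and 163764 in replicates 4 and 5. They summed to 69878 in SP2509 replicate 6, against 97089 to 136804 in vehicle. The 12 muscle markers summed to 756022 normalised reads in SP2509 replicate 6 and to 271259 to 358960 in the other SP2509 libraries, against 155803 to 329194 in vehicle. Lingual gland markers summed to 303303 and 314489 normalised reads in SP2509 replicates 4 and 5, to 210 to 1643 in the remaining SP2509 libraries, and to 106 to 613 in vehicle. Whole reads per library numbered 15748571 to 19375555 in SP2509 and 9180844 to 14768955 in vehicle, so low genes were measured less precisely in vehicle. Mitochondrial genes took 24.0% to 32.2% of the reads in SP2509 libraries and 35.3% to 52.1% in vehicle libraries (exact two-sided permutation p = 0.00476 over 10 libraries, the smallest that 210 regroupings can give). This p counts both members of a close pair, and none was computed over the units. The groups did not overlap in this share, and its part in the results below was not tested. A rescaling without mitochondrial genes called no sensor gene but cannot decide this. It left the calls over all genes nearly unchanged, at 842 higher and 712 lower, beside 846 and 709.

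None of the 10 sensor genes passed an adjusted p of 0.05 (limma over 17088 genes), where 9.1% of all tested genes did (4.95% higher and 4.15% lower). At an unadjusted p under 0.05 there were 2, Ifih1 and Tmem173, against a background of 28%. At an adjusted p under 0.05 edgeR on whole reads called 0 sensor genes, with 912 higher and 585 lower among all tested genes. DESeq2 at that threshold called 1, Tmem173, where 17.6% of all tested genes were called. No sensor gene had groups that did not overlap, against 11.7% of all tested genes (6.54% with SP2509 above vehicle and 5.11% below). Of the 10 log2 fold changes 5 were positive and 5 negative. Their median was 0.00, beside 0.02 over all tested genes, and the median of their sizes regardless of sign was 0.10, beside 0.31. Ifih1 and Tmem173 stood at the upper and lower ends of the range.

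**Figure D1:**
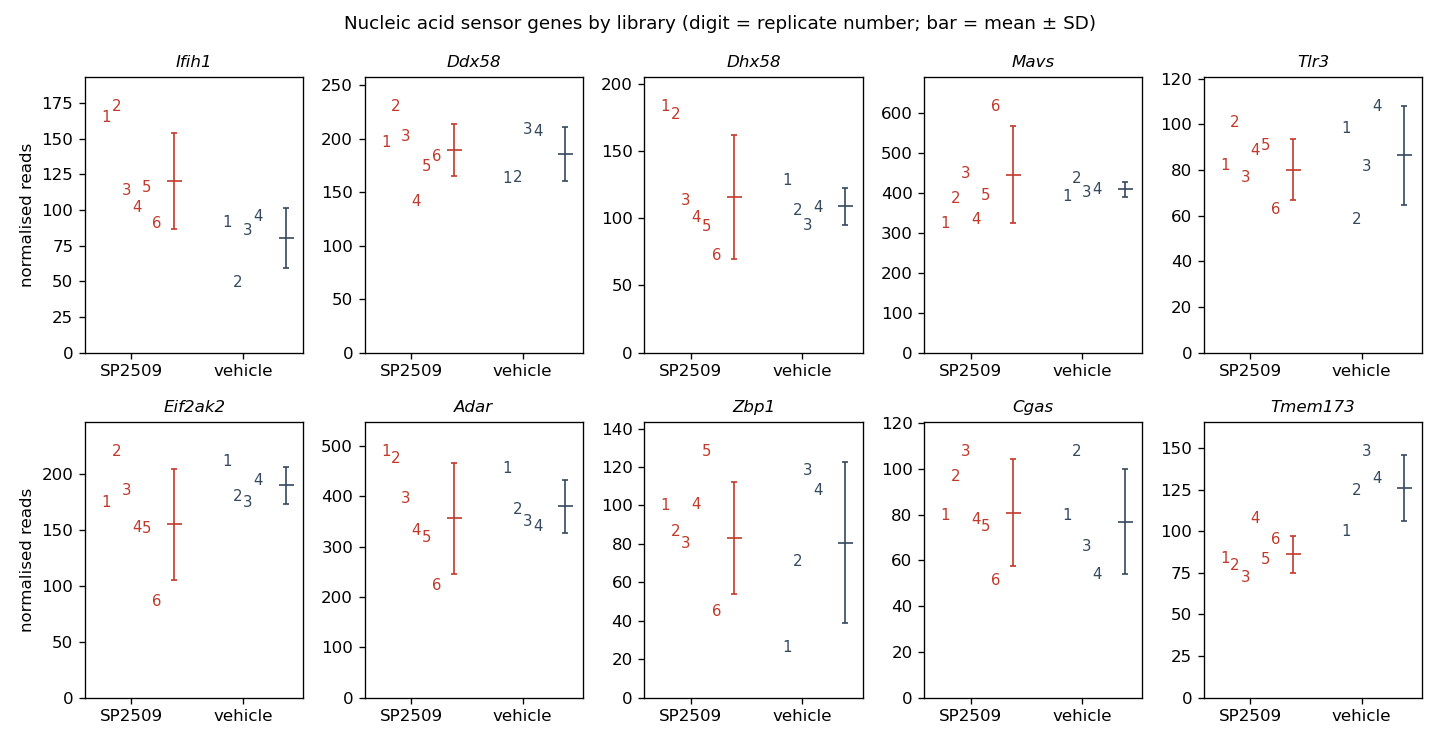
Normalised reads of each of the 10 sensor genes (y axis, from 0) in the 6 SP2509 and 4 vehicle libraries (x axis); each digit is the replicate number of a library, and the bar is the mean ± SD over 4 SP2509 units (close pairs averaged) or 4 vehicle libraries. Ifih1 is above every vehicle library in 5 of 6 SP2509 libraries, Tmem173 is below every vehicle library in 5 of 6, and replicate 6 is the lowest SP2509 library in 7 of 10 genes.

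Ifih1 encodes MDA5, the sensor of long double-stranded RNA, and lies on chromosome 2 (62595798 to 62646255, minus strand, GRCm38). It stood at 165, 172, 114, 102, 116 and 90.3 normalised reads in SP2509 replicates 1 to 6, against 90.9, 49.1, 85.9 and 95.2 in vehicle replicates 1 to 4. The SP2509 libraries were above every vehicle library with the exception of replicate 6, and the highest values were those of the close pair of replicates 1 and 2. Ifih1 averaged 120 ± 33.7 normalised reads in SP2509 and 80.3 ± 21.1 in vehicle (SD, n = 4 each). Its log2 fold change was 0.65 ± 0.25 (SE), with a 95% interval of 0.12 to 1.19, and its limma adjusted p was 0.108 (exact two-sided permutation p = 0.0286 over 10 libraries and 0.0857 over 8 units). With the close pairs merged the adjusted p was 0.253, and without SP2509 replicate 6 it was 0.0452 (20.2% of all tested genes called). Without vehicle replicate 2, its lowest library, the log2 fold change was 0.44.

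Ddx58 encodes RIG-I, the sensor of short duplexes with a 5′ triphosphate, and lies on chromosome 4 (40203773 to 40239828, minus strand). Its values were 197, 230, 203, 141, 174 and 184 normalised reads in SP2509 replicates 1 to 6, against 163, 164, 208 and 207 in vehicle replicates 1 to 4. The SP2509 libraries lay on both sides of the vehicle range. Ddx58 averaged 189 ± 24.3 normalised reads in SP2509 and 186 ± 25.2 in vehicle (SD, n = 4 each). The log2 fold change of Ddx58 was 0.01 ± 0.16 (SE), and the interval of -0.33 to 0.35 leaves room for between 0.797-fold and 1.28-fold (limma adjusted p = 0.968).

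Dhx58 encodes LGP2, a relative of MDA5 and RIG-I without the signalling domains, which modulates both. It lies on chromosome 11 (100694884 to 100704271, minus strand). Dhx58 stood at 183, 177, 114, 100.4, 93.8 and 72.4 normalised reads in SP2509 replicates 1 to 6, against 128, 106, 94.3 and 108 in vehicle. Replicates 1 and 2 were above and replicates 5 and 6 below every vehicle library. Dhx58 averaged 116 ± 46.2 normalised reads in SP2509 and 109 ± 14.0 in vehicle (SD, n = 4 each), and its log2 fold change was 0.11 ± 0.26 (SE), at a limma adjusted p of 0.827. An antisense transcript, Dhx58os, overlaps 141 exonic bases of Dhx58, and its reads cannot be told apart where strand was not used in the counting.

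Mavs encodes the adaptor that passes the signal of both helicases to kinases at the mitochondrial membrane, and lies on chromosome 2 (131234063 to 131248025, plus strand). It stood at 323, 384, 447, 332, 394 and 615 normalised reads in SP2509 replicates 1 to 6, against 389, 435, 401 and 408 in vehicle, where no other sensor gene had a smaller SD relative to its mean. The 615 of replicate 6 was the highest value of any library, and 3 SP2509 libraries lay below every vehicle library. Mavs averaged 445 ± 121 normalised reads in SP2509 and 408 ± 19.1 in vehicle (SD, n = 4 each). Its log2 fold change over the 10 libraries was -0.01 ± 0.16 (SE), at a limma adjusted p of 0.98, and 0.087 with the close pairs merged.

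Tlr3 encodes the endosomal receptor of double-stranded RNA, which signals through TRIF, and lies on chromosome 8 (45395665 to 45411080, minus strand). Its 6 SP2509 values, from 62.7 to 101 normalised reads with a median of 85.3, all lay within the vehicle range of 58.4 to 108. Tlr3 averaged 80.1 ± 13.3 normalised reads in SP2509 and 86.5 ± 21.6 in vehicle (SD, n = 4 each), and its log2 fold change was -0.03 ± 0.21 (SE), at a limma adjusted p of 0.952.

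Eif2ak2 encodes PKR, which halts translation by phosphorylating eIF2alpha when it binds double-stranded RNA, and lies on chromosome 17 (78852564 to 78882573, minus strand). It had 174, 220.2, 185, 153, 151 and 86.3 normalised reads in SP2509 replicates 1 to 6, against 211, 179.7, 175 and 195 in vehicle. Replicate 6 was far below every vehicle library, and replicates 1, 4 and 5 were also under the lowest of them. Eif2ak2 averaged 155 ± 49.7 normalised reads in SP2509 and 190.1 ± 16.6 in vehicle (SD, n = 4 each). Its log2 fold change was -0.28 ± 0.22 (SE; limma adjusted p = 0.427), and -0.12 without replicate 6.

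Adar encodes the editing enzyme ADAR1, which converts adenosines of duplex RNA to inosine and so keeps MDA5 from reading it, and lies on chromosome 3 (89715022 to 89753446, plus strand). Its values were 489, 476, 396, 333, 319 and 222 normalised reads in SP2509 replicates 1 to 6, against 456, 375, 351 and 339 in vehicle. Replicates 1 and 2 were above the vehicle range and replicates 4, 5 and 6 below it. Adar averaged 357 ± 110 normalised reads in SP2509 and 380.2 ± 52.7 in vehicle (SD, n = 4 each), and its log2 fold change was -0.07 ± 0.20 (SE), at a limma adjusted p of 0.859. The table gives 1 value per gene, so the interferon-inducible and the constitutive ADAR1 transcripts were not separated, and 1365 exonic bases overlap the gene Chrnb2 on the other strand.

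Zbp1, on chromosome 2 (173206612 to 173218923, minus strand), encodes a sensor of Z-form nucleic acid that triggers necroptosis through RIPK3. It had 99.8, 86.6, 80.3, 100.4, 128 and 44.8 normalised reads in SP2509 replicates 1 to 6, against 26.0, 70.6, 118 and 108 in vehicle. Vehicle replicate 1, the lowest library, rested on 14 reads, and the other vehicle libraries on 46 to 120. The mean log2 value of the fibroblast list, which was also lowest in vehicle replicate 1, had an r of 0.93 with Zbp1 over the 10 libraries, and that of the macrophage list an r of 0.70. The part of either list or of depth in the Zbp1 values was not tested. Zbp1 averaged 83.1 ± 29.1 normalised reads in SP2509 and 80.6 ± 41.8 in vehicle (SD, n = 4 each). The log2 fold change of Zbp1 was 0.30 ± 0.40 (SE; limma adjusted p = 0.671) and turned to -0.17 without vehicle replicate 1.

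Of the DNA branch, Cgas (chromosome 9, 78430526 to 78443237, minus strand) encodes the enzyme that makes the cyclic dinucleotide cGAMP on binding DNA. Cgas had 79.7, 96.5, 107, 78.0, 74.9 and 51.3 normalised reads in SP2509 replicates 1 to 6, against 79.7, 107, 66.2 and 53.9 in vehicle. The groups covered nearly the same range. Cgas averaged 80.8 ± 23.5 normalised reads in SP2509 and 76.8 ± 23.0 in vehicle (SD, n = 4 each), and its log2 fold change was 0.09 ± 0.25 (SE), at a limma adjusted p of 0.848.

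Tmem173 (chromosome 18, 35733679 to 35740554, minus strand) encodes STING, the adaptor that cGAMP activates and that recruits the kinase TBK1. Tmem173 had 83.4, 79.2, 72.5, 108, 82.9 and 95.2 normalised reads in SP2509 replicates 1 to 6, against 100.1, 124, 148 and 132 in vehicle replicates 1 to 4. Every SP2509 library but replicate 4 was below every vehicle library, and replicate 4 was above vehicle replicate 1 alone. Tmem173 averaged 86.1 ± 11.2 normalised reads in SP2509 and 126 ± 19.9 in vehicle (SD, n = 4 each). Its log2 fold change was -0.53 ± 0.17 (SE), with a 95% interval of -0.91 to -0.15, and its limma adjusted p was 0.0714 (exact two-sided permutation p = 0.0143 over 10 libraries, and 0.0286 over 8 units, the smallest that 70 regroupings can give). With the close pairs merged the adjusted p was 0.16, without SP2509 replicate 6 it was 0.0444, and DESeq2 on the whole reads gave 0.0171 (17.6% of all tested genes called).

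The summed reads of the 9 dendritic cell markers were also lower in SP2509, at 279 to 438 normalised reads, against 453 to 597 in vehicle. Of the 9 tested markers 1 was lower and none higher, and their part in the Tmem173 values was not tested. The mean log2 value of these markers had a Pearson r of 0.81 with Tmem173 over the 10 libraries. This r and those that follow pool both groups, so the difference between the groups enters them. The r within a group was not computed. B and plasma cell markers summed to 161 to 327 normalised reads in SP2509 and to 288 to 522 in vehicle (1 of 4 tested markers lower, r = 0.66 with Tmem173). Nerve and Schwann cell markers summed to 5365 to 11720 normalised reads in SP2509 and to 9493 to 19542 in vehicle (2 of 7 lower, r = 0.51 with Tmem173). The keratinocyte list had an r of -0.63 with Tmem173. With that list as a covariate Tmem173 had a log2 fold change of -0.43 (limma adjusted p = 0.113; 16% of all tested genes called). The part of these lists in the Tmem173 values was not tested beyond this fit. Macrophage markers, the other myeloid list, summed to 1291 to 2371 normalised reads in SP2509 and to 892 to 1606 in vehicle, with 1 of 9 higher and none lower. Of all tested genes 4.95% were higher and 4.15% lower. Calls of 1 or 2 among so few markers are not read as a result about a list. In bulk tissue, fewer cells of a type and less RNA per cell cannot be told apart.

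**Figure D2:**
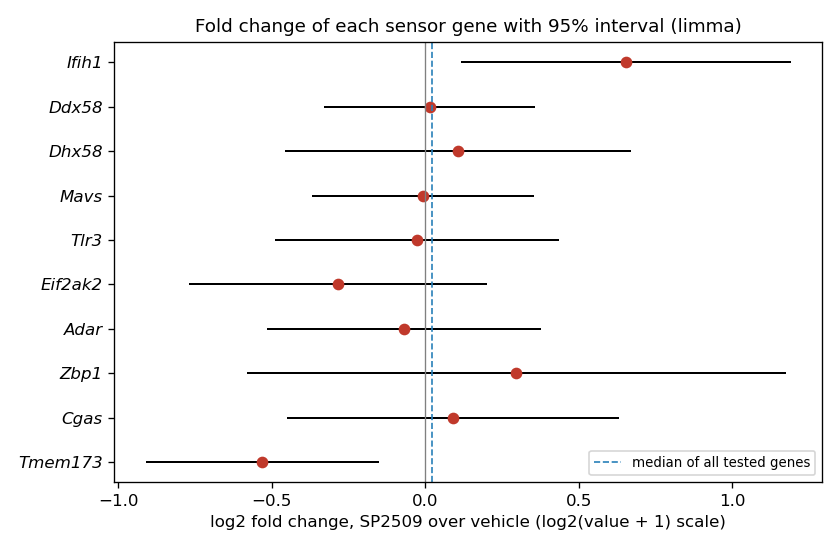
Log2 fold change of SP2509 over vehicle for each sensor gene (points, x axis, on the log2(value + 1) scale) with its 95% interval from limma (lines); the dashed line is the median of all tested genes at 0.02. The intervals of Ifih1 (0.12 to 1.19) and Tmem173 (-0.91 to -0.15) lie on opposite sides of 0 and the other 8 include 0; none passed after adjustment.

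Set beside the start-site sequences, the 3 genes with the ISRE core had log2 fold changes of 0.65 (Ifih1), 0.01 (Ddx58) and -0.28 (Eif2ak2), and so lay across the range of the sensor genes. The 2 genes with neither core had -0.01 (Mavs) and 0.09 (Cgas).

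Per kilobase of exonic sequence, Mavs was the most abundant sensor transcript in both groups, at 133 ± 36.3 normalised reads per kilobase in SP2509 and 122 ± 5.72 in vehicle (SD, n = 4 each), and its range did not overlap that of the next gene, Adar. Adar followed with 43.9 ± 13.6 normalised reads per kilobase in SP2509 and 46.8 ± 6.50 in vehicle. At the low end Ifih1 had 14.7 ± 4.12 normalised reads per kilobase in SP2509 and 9.83 ± 2.58 in vehicle, and Tlr3 had 15.4 ± 2.56 in SP2509 and 16.6 ± 4.16 in vehicle. Below Mavs all 8 neighbouring pairs had overlapping ranges in each group. Compared within each library, Adar was above Dhx58 and Cgas above Tlr3 in 6 of 6 SP2509 libraries. In vehicle, Eif2ak2 was above Dhx58 and Tlr3 above Ifih1 in 4 of 4 libraries. The other neighbouring pairs below Mavs were not ordered the same way in every library of a group. In SP2509 the order ran Adar, Dhx58, Tmem173, Eif2ak2, Ddx58, Zbp1, Cgas, Tlr3 and Ifih1. Tmem173, at 31.4 ± 4.10 normalised reads per kilobase in SP2509, came after Dhx58 there, whereas in vehicle it came directly after Adar and ahead of Eif2ak2 and Dhx58.

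The sensor genes did not vary as 1 block across libraries. Dhx58, Adar and Eif2ak2 had similar profiles, with a Pearson r of 0.92 between Dhx58 and Adar, 0.87 between Adar and Eif2ak2 and 0.70 between Dhx58 and Eif2ak2 in log2 values over 10 libraries, which include the close pairs. Over the 8 units these r values were 0.91, 0.91 and 0.75. All 3 genes were lowest in SP2509 replicate 6, and Dhx58 and Adar were highest in SP2509 replicates 1 and 2. Mavs ran the other way, with an r of -0.71 against Adar. Ifih1 and Tmem173 also ran in opposite directions, with an r of -0.67. These are descriptions of libraries that share their tissue make-up, and no p is given. The r values here and below pool both groups, so differences between the groups enter them. For Ifih1 and Tmem173 the log2 fold changes had opposite signs.

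The keratinocyte list moved with the Adar and Dhx58 profile. The mean log2 value of its 12 markers had an r of 0.80 with Adar, 0.80 with Dhx58, 0.75 with Cgas, 0.63 with Eif2ak2 and 0.60 with Ifih1 over the 10 libraries, and its part in their values was not tested beyond the covariate fits given here. Eif2ak2 ran against the muscle list, with an r of -0.84. Ifih1 ran more closely against lists that were lower in SP2509 in part, with an r of -0.79 for B and plasma cells, -0.78 for nerve and Schwann cells and -0.74 for dendritic cells. Cgas had an r of -0.80 with the endothelial list. The part of these 4 lists was not tested. With the muscle list as a covariate Ifih1 had a log2 fold change of 1.02 (limma adjusted p = 0.0379; 7.09% of all tested genes called). With the keratinocyte list as a covariate Eif2ak2 had a log2 fold change of -0.56 (limma adjusted p = 0.0238; 16% of all tested genes called) and Ifih1 one of 0.50 (limma adjusted p = 0.187). The same fit gave -0.33 for Adar (limma adjusted p = 0.0784), -0.18 for Dhx58 (limma adjusted p = 0.573) and -0.15 for Cgas (limma adjusted p = 0.677). The sign of Eif2ak2 turned to 0.13 with the muscle covariate.

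**Figure D3:**
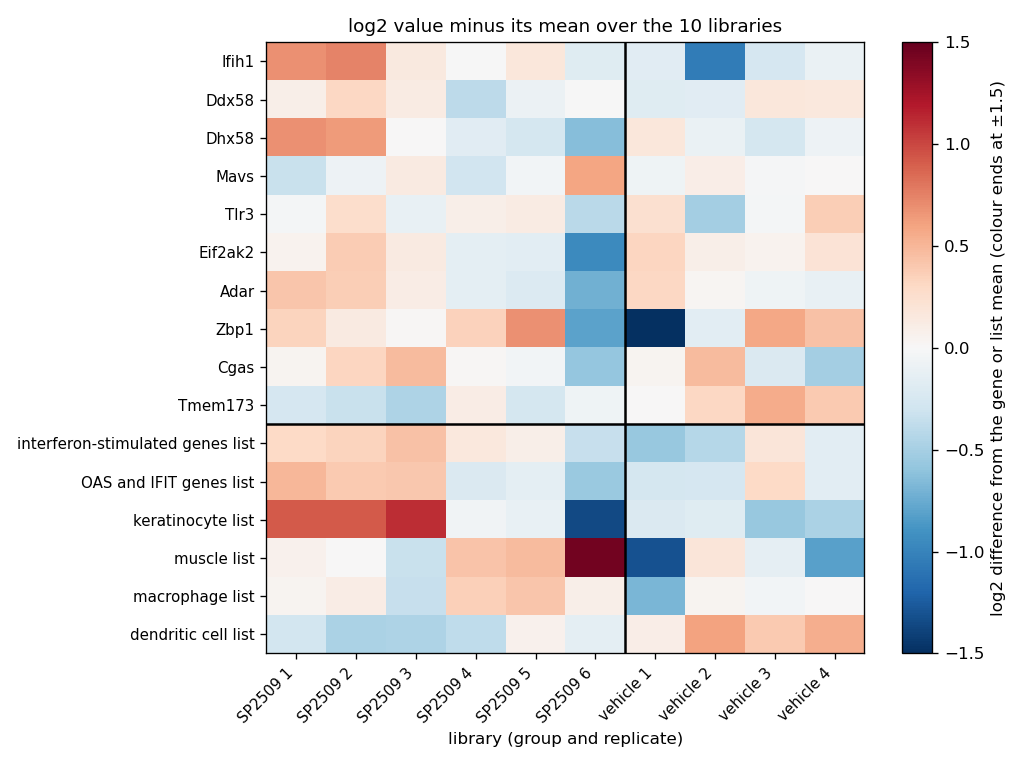
Log2 value of each sensor gene, and mean log2 value of 6 gene lists, minus the mean over the 10 libraries (colour; red above, blue below, ends at ±1.5); columns are the 6 SP2509 and then the 4 vehicle libraries. Dhx58, Adar and Eif2ak2 are low in SP2509 replicate 6 together with the keratinocyte list, where the muscle list is at its highest.

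Across libraries, several sensors varied with the interferon-stimulated genes. The median Pearson r with the 24 tested genes of that list was 0.50 for Ifih1, 0.43 for Ddx58, 0.39 for Zbp1 and 0.34 for Dhx58, beside 0.02, 0.02, 0.01 and -0.03 with all tested genes. It was -0.28 for Mavs and -0.29 for Tmem173, and 0.15 to 0.24 for the other 4 sensors. Among the 100 tested genes with the highest r for each sensor, 2 genes of that list were found for Ddx58. For every other sensor, Ifih1 included, 0 were found. Among single genes, Ifih1 was closest to S100a9 (r = 0.97 over 10 libraries) and S100a8 (r = 0.95), subunits of calprotectin made by neutrophils and stressed keratinocytes. Adar was closest to Ajuba (r = 0.97), a LIM protein of cell junctions, Dhx58 to Hpgd (r = 0.96), the prostaglandin-degrading enzyme, and Eif2ak2 to Erbb2 (r = 0.95), an epithelial growth factor receptor. Tmem173 was closest to Pirb (r = 0.95), an inhibitory receptor of myeloid and B cells. Among the 3 most similar genes of each sensor, 1 of 30 belonged to the list of interferon-stimulated genes, Xaf1 for Ddx58 (r = 0.88), where that list makes up 0.14% of all tested genes. These genes were picked as the best among all tested genes with a mean of at least 50 over 10 libraries, so high r values are built into the choice.

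The 24 tested interferon-stimulated genes, the usual output of the sensors, held none that passed, with 18 positive log2 fold changes and a median of 0.28, beside 0.02 over all tested genes. At an unadjusted p under 0.05 there were 5 of the 24, where 28% of all tested genes were at that level. The members with the smallest p were Ifitm3, which blocks viral entry (log2 fold change 0.63 ± 0.19 SE, limma adjusted p = 0.0597), and Gbp2, an interferon-induced GTPase (0.98 ± 0.31, limma adjusted p = 0.0665). Isg15, a ubiquitin-like modifier chosen here after its values were seen, was high in 3 SP2509 libraries only. It had 216, 176 and 187 normalised reads in SP2509 replicates 1 to 3 and 73.8, 66.2 and 68.4 in replicates 4 to 6, against 53.8 to 80.2 in vehicle. Replicates 1 and 2 are a close pair. Keratinocyte markers summed to 277628 to 333913 normalised reads in replicates 1 to 3 and to 69878 to 164474 in replicates 4 to 6. The keratinocyte covariate fit of Isg15 is not given here, and the part of these markers was not tested otherwise. Isg20 of the same list, likewise chosen after its values were seen, was instead high in SP2509 replicates 4 and 5 only. It had 1132 and 1160 normalised reads there and 94.4 to 125 in the other SP2509 libraries, against 98.3 to 137 in vehicle. Averaged over the 24 interferon-stimulated genes, the log2 value stood at 7.69, 7.73, 7.84, 7.55 and 7.48 in SP2509 replicates 1 to 5 and 7.05 in replicate 6, against 6.83 to 7.58 in vehicle. In replicate 6, 16 of the 24 genes had their lowest SP2509 value, as 29.2% of all tested genes did.

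Interferon genes themselves were scarce. Ifnb1, Ifna2, Ifna4 and Ifnl2 are not among the genes analysed here, and Ifnl3 and Ifng lay under the filter, with 0 to 2.91 and 0 to 5.81 normalised reads in SP2509 libraries, against 0 to 8.98 and 0 to 3.71 in vehicle libraries. Of 13 tested genes of interferon receptors and signalling 1 was lower, Tyk2, the kinase bound to the type I receptor. Tyk2 averaged 633 ± 55.8 normalised reads in SP2509 and 883 ± 122 in vehicle (SD, n = 4 each; log2 fold change -0.44 ± 0.11 SE, limma adjusted p = 0.0362, 0.107 with the pairs merged). With the muscle covariate Tyk2 was at -0.29 (limma adjusted p = 0.157). Every SP2509 library was below every vehicle library.

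Of the 12 genes of the OAS and IFIT list, whose products sense or bind viral RNA, none passed, with 7 positive log2 fold changes and a median of 0.08. Oas1a, a synthetase that double-stranded RNA activates, was at 0.87 ± 0.40 (SE, limma adjusted p = 0.175). Oas1a stood at 170, 167, 115, 88.8, 80.0 and 42.3 normalised reads in SP2509 replicates 1 to 6, against 27.8, 70.6, 60.5 and 72.7 in vehicle, and was above every vehicle library in 5 of 6 SP2509 libraries, as Ifih1 was.

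Between the adaptors and interferon, 1 of 18 kinases, TRAF proteins and transcription factors was higher and 1 lower. The list had 7 positive and 11 negative log2 fold changes, with a median of -0.03. At an unadjusted p under 0.05 there were 6 of the 18, where 28% of all tested genes were at that level. Among these 6, Tank was positive, and Ikbke, Irf3, Ikbkb, Chuk and Tbkbp1 were negative. Tank, a scaffold that binds TRAF3 and TBK1, averaged 239 ± 7.01 normalised reads in SP2509 and 173 ± 25.4 in vehicle (SD, n = 4 each; log2 fold change 0.47 ± 0.12 SE, limma adjusted p = 0.0369, 0.125 merged). Ikbke, the TBK1-related kinase IKKepsilon, averaged 413 ± 83.0 in SP2509 and 634 ± 157 in vehicle (-0.60 ± 0.17, limma adjusted p = 0.0444, 0.132 merged). With the muscle covariate Ikbke was at -0.29 (limma adjusted p = 0.241) and Tank at 0.39 (limma adjusted p = 0.124), and without vehicle replicate 1, its highest library, Ikbke was at -0.44 (limma adjusted p = 0.13). For both genes the groups did not overlap. Irf3, the factor that the kinases activate, was below every vehicle library in 6 of 6 SP2509 libraries (-0.28 ± 0.10, limma adjusted p = 0.0776), and Tbk1 was at -0.12 ± 0.14 (limma adjusted p = 0.639); both were chosen after their values were seen.

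Among 14 regulators of the RIG-I-like receptors 1 was higher and none lower, with a median of 0.13. Ddx3x, an RNA helicase that assists MAVS signalling and also translation, averaged 2775 ± 327 normalised reads in SP2509 and 2075 ± 245 in vehicle (SD, n = 4 each; log2 fold change 0.45 ± 0.13 SE, limma adjusted p = 0.0453, 0.153 merged). The 6 tested genes of other endosomal receptors had none past the threshold (median 0.03), with Irak1, a kinase of MYD88 signalling, at -0.28 ± 0.09 (limma adjusted p = 0.0781) and Unc93b1, which carries these receptors to endosomes, at -0.28 ± 0.13 (limma adjusted p = 0.188). Tlr8 and Tlr9 lay under the filter.

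Around the DNA branch, 16 other DNA sensor genes held 1 higher and none lower, with 11 negative log2 fold changes and a median of -0.25. Mre11a, a double-strand break nuclease, stood at 199.9 to 225 normalised reads in SP2509 and at 156 to 169 in vehicle (log2 fold change 0.38 ± 0.11 SE, limma adjusted p = 0.0495, 0.158 merged), with no overlap of the groups. Aim2, the inflammasome sensor of DNA and chosen after its values were seen, was at -0.85 ± 0.29 (limma adjusted p = 0.0838). Of 14 genes of cGAMP handling, STING traffic and STING turnover 2 were higher and none lower, with a median of 0.19. Surf4, a cargo receptor that returns STING to the endoplasmic reticulum, averaged 1588 ± 422 normalised reads in SP2509 and 846 ± 87.5 in vehicle (0.92 ± 0.18, limma adjusted p = 0.0149, 0.0718 merged). Tmed2, a cargo receptor of the early secretory pathway, averaged 1629 ± 243 in SP2509 and 933 ± 94.2 in vehicle (0.83 ± 0.13, limma adjusted p = 0.0118, 0.0718 merged). Both serve general secretory traffic, and Surf4 was highest in the gland-rich SP2509 replicates 4 and 5 (2188 and 2243 normalised reads) with 1301 to 1418 in the other SP2509 libraries, all above the vehicle maximum of 949. Tmed2 was also highest in SP2509 replicates 4 and 5 (1971 and 1940 normalised reads). The other SP2509 libraries had 1401 to 1660 for Tmed2, above its vehicle maximum of 1059.

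On the output side of PKR and ZBP1, 1 of 13 genes was higher and none lower (median 0.21). Eif2s1 encodes eIF2alpha, the PKR substrate and a translation factor that every cell needs. It averaged 598 ± 162 normalised reads in SP2509 and 326 ± 43.8 in vehicle (SD, n = 4 each; log2 fold change 0.84 ± 0.17 SE, limma adjusted p = 0.0175, 0.0751 merged), and the groups did not overlap. Of 11 tested nucleases and related genes that limit self nucleic acid none passed (median 0.06), with Rnaseh2c, a subunit of RNase H2, at 0.37 ± 0.12 (SE, limma adjusted p = 0.0794) and Dnase1l1, a relative of DNase I, at -0.41 ± 0.19 (limma adjusted p = 0.175).

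Genes that keep repeats silent or process double-stranded RNA, the supply side of viral mimicry, held none past the threshold among 22, with 6 at an unadjusted p under 0.05 (28% of all tested genes) and a median of -0.04. Ago2, the small-RNA-guided nuclease, was above every vehicle library in 6 of 6 SP2509 libraries at 0.38 ± 0.12 (SE, limma adjusted p = 0.0594), and Morc3, a chromatin ATPase of repeat silencing, was below every vehicle library in 6 of 6 at -0.33 ± 0.10 (limma adjusted p = 0.0551). Kdm1a, the gene of LSD1 itself, chosen after its values were seen, was at 0.01 ± 0.12 (limma adjusted p = 0.958). Over the 163 tested genes of the 11 lists around the sensors, 6 were higher (3.68%) and 2 lower (1.23%), beside 4.95% and 4.15% of all tested genes. Of the 8 genes, Tmed2 alone still passed without vehicle replicate 1, where 171 genes were higher and 107 lower among all 17088 tested. With the close pairs merged none of the 163 passed, and none of all tested genes did. Without SP2509 replicate 6 there were 21 higher and 11 lower among the 163, where 1971 were higher and 1488 lower among all tested genes (20.2% called).

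**Figure D4:**
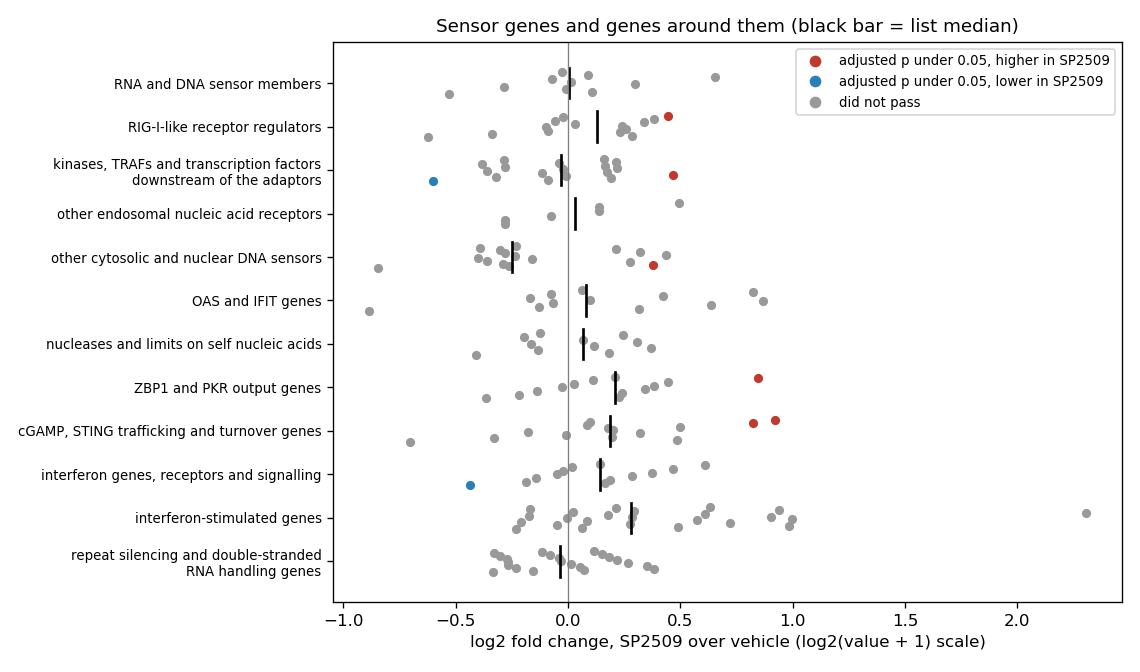
Log2 fold change of SP2509 over vehicle (x axis) for each tested gene of the sensor list and of the 11 lists around it (rows); red and blue points passed an adjusted p of 0.05 as higher or lower, grey points did not, and the black bar is the list median. The sensor row holds no coloured point, and the largest list median is 0.28, of the interferon-stimulated genes.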

How the data were processed

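Poly-A RNA was sequenced in 10 tongue libraries. Alignment and counting tools listed in the submitters' processing notes are HISAT2 and featureCounts, with the build mm10. No source used here gives the annotation, the use of strand or the scaling tool. Each deposited signal value is a read count that the authors divided by a size factor of its library, as the values themselves show: in each library 100% lay within 0.01 of a whole multiple of its smallest value above 0, so whole reads could be recovered. One read was worth 0.727 to 0.873 normalised reads in SP2509 and 0.898 to 1.85 in vehicle.

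Symbols (27113 of 27151 IDs) and coordinates are from GENCODE M21 on GRCm38, the build mm10. Groups were compared with limma 3.58.1 under R 4.3.3 (trend, robust) on log2(value + 1), two-sided, over 10 libraries without covariates, on the 17088 genes that reached 10 in 4 or more libraries, adjusted by Benjamini-Hochberg over all of them; called means an adjusted p under 0.05. Fold changes on this scale understate low genes. Intervals cover 95%. Alternatives are edgeR 4.0.16 and DESeq2 1.42.0 on whole reads, other pseudocounts, filters, scalings, weights, covariates, a replicate block, merged pairs and left-out libraries. Scripts were tested on simulated data. Named genes are the 10 sensors, genes of each list past the threshold or else the 2 with the smallest p, and for each sensor its 3 most similar genes with a mean of at least 50. One gene that this rule names is not reported here. Members, lists and rule were chosen with earlier results of these data known. Other tables and figures used Python 3.11.15, pandas 2.3.3, NumPy 2.4.6 and matplotlib 3.10.9.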

Additional observations from a re-analysis of the deposited data

Results flagged for a closer look

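Among 56 sets of SP2509 or vehicle values of the sensor genes and the genes named by rule, 2 held a library far from the others of its group, while chance flags about 1 in 20. Dnase1l1 stood at 1019 normalised reads in SP2509 replicate 6, the muscle-rich library, where SP2509 replicates 1 to 5 held 502 to 561, against 699 to 868 in vehicle. Gbp2 stood at 470 normalised reads in SP2509 replicate 3, where the remaining SP2509 libraries held 209 to 274, against 66.8 to 231 in vehicle. No sensor gene met this criterion.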

How the results depend on the processing

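No sensor gene was called by limma with another pseudocount, filter or scaling, without the trend, with the close pairs merged or without SP2509 replicates 4 and 5, nor by edgeR on whole reads. With library weights 2 were called, Ifih1 (log2 fold change 0.74) and Tmem173 (-0.66), where 24.3% of all tested genes were called, and DESeq2 called 1, Tmem173 (-0.56; 17.6% of all). The muscle covariate gave 1, Ifih1 (1.02; 7.09% of all), and the keratinocyte covariate gave 1, Eif2ak2 (-0.56; 16% of all). Leaving out 1 library gave 0 to 2, the 2 being Ifih1 and Tmem173 without SP2509 replicate 6 (20.2% of all). Over the left-out libraries the log2 fold change ran from 0.44 to 0.75 for Ifih1 and from -0.64 to -0.45 for Tmem173, and from -0.38 to -0.12 for Eif2ak2.

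The sign was not settled for the remaining genes and for Eif2ak2 (0.13 with the muscle covariate). Ddx58 was at -0.063 with quantile normalization, -6.73e-05 in DESeq2, -0.043 with the keratinocyte covariate and -0.047 to 0.093 over left-out libraries. Dhx58 was at -0.18 with the keratinocyte covariate and -0.024 to 0.24 over left-out libraries. Tlr3 was at 0.27 with the muscle covariate, 0.024 with merged pairs and no replicate 6, and -0.20 to 0.090 over left-out libraries. Mavs was at 0.011 with TMM scaling, 0.087 with merged pairs, 0.074 without SP2509 replicates 4 and 5, 0.054 in edgeR, 0.013 in DESeq2, 0.12 with the keratinocyte covariate, 0.15 in edgeR with summed pairs, and -0.13 to 0.058 over left-out libraries. Adar was at 0.24 with weights, 0.0027 without SP2509 replicates 4 and 5, 0.0055 in edgeR, 0.30 with the muscle covariate, 0.069 with merged pairs and no replicate 6, and -0.16 to 0.069 over left-out libraries. Zbp1 ran from -0.17 to 0.55 and Cgas from -0.062 to 0.27 over left-out libraries, with Cgas at -0.15 with the keratinocyte covariate. The cause of these shifts was not tested.

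Over all genes, 846 were called higher and 709 lower. The counts were 553 higher without a filter, 458 and 448 without the trend, 2381 and 1778 with weights, 219 and 156 without SP2509 replicates 4 and 5, 1606 and 1394 in DESeq2, 1579 and 1159 with the keratinocyte covariate, and 462 lower with the muscle covariate. Quantile normalization gave 666 higher and 1060 lower. With merged pairs limma called 0 and 0 (3632 genes at an unadjusted p under 0.05), and edgeR with summed pairs called 0 and 0 (3875 at that level). Leaving out 1 library gave 171 to 1971 higher and 107 to 1488 lower, with the lowest counts without vehicle replicate 1 and the highest without SP2509 replicate 6. The fits with summed pairs, and with merged pairs and no replicate 6, were chosen after seeing the data.

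The replicate numbers did not pair the groups: same-numbered libraries had deviation correlations of 0.13, 0.03, -0.20 and 0.13. With the replicate block 1125 genes were higher and 769 lower, 0 sensor genes were called, and the log2 fold change was 0.15 for Adar and 0.038 for Tlr3. Among the sensor genes the fewest reads were the 14 of Zbp1 in vehicle replicate 1.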
